A study of Mus musculus with 4 samples.

Results

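Mouse ribosomal DNA, the repeated genes for ribosomal RNA, lies in arrays on a few autosomes, and chromosomes 12, 15, 16, 18 and 19 are the 5 known as carriers of these nucleolar organizers. Described here are the contacts between different members of this group in Hi-C counts of mouse embryonic stem cells. Pairs were taken by chromosome name alone: every pair with both chromosomes among the 5, which gives 10 of the 171 pairs of 19 autosomes, or 10 of 210 pairs when X and Y are included. All 10 were measured in every library and all passed the minimum of 10 counts.

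In the nucleus, RNA polymerase I transcribes the arrays, and the nucleolus assembles around the active ones. Arrays of several chromosomes can share a nucleolus, and the heterochromatin near mouse centromeres often gathers at its edge. Mouse chromosomes have their centromere at one end, and the arrays lie close to it, within sequence that the assembly leaves out. Laboratory strains differ in which chromosomes carry arrays, and the carriers in the cells used here were not determined.

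The cells belonged to E14, a male line of mouse embryonic stem cells. Serum cultures were kept in foetal calf serum with LIF. The 2i cultures were kept for 14 days in serum-free medium with LIF, 1 uM of the MEK inhibitor PD0325901 and 3 uM of the GSK3 inhibitor CHIR99021, a combination that holds the cells in a ground state of pluripotency. There were 2 biological replicates of each condition, all from 1 cell line, so the results apply to that line. In situ Hi-C with DpnII, which cuts at GATC, joined DNA ends that lay near each other in fixed nuclei, and sequencing counted the joined pairs.

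Unique read pairs numbered 123275426 and 340643083 for serum replicates 1 and 2, and 435928775 and 241677493 for 2i replicates 1 and 2. Serum replicate 1 was the shallowest, with 55.4% duplicates among its mapped pairs against 16.9% to 23.2% in the others. 2i replicate 1 had 19.1% of its unique pairs in trans, that is between different chromosomes, while the others had 13.5% to 13.9%. Pairs between different autosomes numbered 16074875, 44444652, 78611729 and 30714442 in the same order of libraries, which is kept for all values below.

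Each count was divided by the count expected when every autosome keeps its own trans total. The ratio is given as log2, so that 0 means as many contacts as those totals imply. Since the totals are kept, a chromosome with some pairs above expectation must have others below it, and the 171 ratios are not independent. At this depth the 95% Poisson limits of a ratio lay within 0.0132 of it for each of the 10 pairs, and these limits cover counting error only.

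Chromosomes 12, 16, 18 and 19 met each other more often than their totals implied, while the pairs of chromosome 15 had lower ratios. The 6 pairs among those 4 chromosomes held ranks 1 to 6 of 171 by mean ratio, at 1.08 to 1.15 times the expected count. Of the 4 pairs of chromosome 15, those with 18 and 19 lay slightly above expectation and those with 12 and 16 below it. This division of the 10 pairs into 6 and 4 was made after the values were seen.

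Added together, the 10 pairs held 576429, 1619015, 2958283 and 1057414 contacts. These were 3.59%, 3.64%, 3.76% and 3.44% of autosome trans pairs, with expected shares of 3.39%, 3.46%, 3.53% and 3.27%. Every library thus had more contacts in the group than expected, by a factor of 1.06, 1.05, 1.06 and 1.05. The Wilson 95% interval of the share was 3.58% to 3.60% in serum replicate 1 and narrower in the deeper libraries. These intervals cover counting error only, and replicates differed by more than their width, as 3.76% and 3.44% in 2i show.

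The median log2 ratio of the 10 pairs was 0.11, 0.10, 0.12 and 0.12, with 8 of 10 above 0 in each library. Among the 70 pairs with only 1 chromosome of the group, the median was -0.016, -0.018, -0.015 and -0.012. Among the 91 pairs with none, it was 0.0039, 0.0035, 0.0023 and 0.0017, and over all 171 pairs -0.0043, -0.0050, -0.0056 and -0.0028. The members therefore had the highest median of these classes in all 4 libraries, while pairs joining a member with an outsider had the lowest. Since totals are kept, an excess summed within the group must be balanced by a deficit summed over pairs of member and outsider.

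Chromosome 19, the shortest autosome at 61.3 Mb, took part in the 3 pairs of highest mean ratio. Chromosomes 18 and 19 were counted together 46098, 132019, 253394 and 88358 times, and their log2 ratio was 0.20, 0.19, 0.21 and 0.21. The 4 libraries lay close together, and the mean of 0.20, or 1.15 times the expected count, was the highest of all autosome pairs. Chromosomes 16 and 19 had ratios of 0.21, 0.19, 0.17 and 0.17, with a mean of 0.19. Here both serum libraries lay above both 2i libraries. Chromosomes 12 and 19 had ratios of 0.25, 0.18, 0.13 and 0.13, with a mean of 0.17. Serum replicate 1 stood highest for this pair, the highest of all 171 pairs in that library, and the 2i libraries again lay below the serum libraries.

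The other 3 pairs among chromosomes 12, 16, 18 and 19 had nearly the same mean as each other. Chromosomes 16 and 18 had log2 ratios of 0.11, 0.11, 0.14 and 0.13, with a mean of 0.12 and both 2i libraries above both serum libraries. Chromosomes 12 and 18 had ratios of 0.12, 0.11, 0.14 and 0.12, with a mean of 0.12 and overlapping conditions. Chromosomes 12 and 16 had ratios of 0.12, 0.093, 0.12 and 0.13, also with a mean of 0.12 and overlapping conditions. Their means ran from 0.116 to 0.122, a narrower range than that of the 4 libraries within any of the 3 pairs.

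The 6 pairs took the 6 highest ranks of 171 in serum replicate 1, serum replicate 2 and 2i replicate 1. In 2i replicate 2 they held 4 of the highest 6 ranks and the lowest of them was at rank 8. Chromosomes 11 and 19, at 0.15, were the highest pair outside the 10 in that library. By the mean, the highest pair outside the 10 was chromosomes 11 and 15 at 0.11, and the lowest of all pairs was chromosomes 1 and 19 at -0.12.

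The 4 pairs of chromosome 15 had lower means than the other 6. With chromosome 19 its log2 ratio was 0.0005, 0.022, 0.10 and 0.082, so that the serum libraries lay near 0 and both 2i libraries above them. With chromosome 18 it was 0.021, 0.028, 0.037 and 0.040, above 0 in every library and at rank 30 of 171 by the mean. With chromosome 16 the ratio was -0.045, -0.020, -0.025 and -0.055, below 0 in every library. With chromosome 12 it was -0.097, -0.068, -0.050 and -0.13, also below 0 in every library. Its mean of -0.086 placed chromosomes 12 and 15 at rank 169 of 171. With expected counts from the product of lengths, the order was different. The mean for chromosomes 15 and 16 was then above 0, at 0.099, and those for 15 and 18 at 0.17 and 15 and 19 at 0.51 exceeded 12 and 16 at 0.049 and 12 and 18 at 0.055, so the division into 6 and 4 held only with chromosome totals kept.

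A limma fit over all 171 pairs, chosen after the values were seen, tested each mean ratio against 0 across the 4 libraries with the condition as a term. At a Benjamini-Hochberg adjusted p under 0.05, 8 of the 10 pairs lay above 0, where 31.6% of all autosome pairs did. The other 2 members, chromosomes 12 and 15 and chromosomes 15 and 16, lay below 0, where 39.8% of all autosome pairs did. By limma the adjusted p was 6.1e-08 for chromosomes 18 and 19, above 0 in 4 of 4 libraries, and 2.1e-04 for chromosomes 15 and 18, likewise above 0 in 4 of 4. The members kept these calls when each library was left out in turn. With 122 of 171 pairs called in either direction, the test separated small shifts from 0, and the ratios above give their size.

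The ranking by pair fixes the leading partners of chromosomes 12, 16, 18 and 19, and leaves their order and the lowest partner to be read. Among the 18 autosome partners of chromosome 12, the highest mean ratios were with 19, 18 and 16 in that order, and the lowest was with 11 at -0.12. Chromosome 16 had its highest ratios with 19, 18 and 12, and its lowest with 11 at -0.056. Chromosome 18 had its highest with 19, 16 and 12, and its lowest with 2 at -0.072. Chromosome 19 had its highest with 18, 16 and 12, and its lowest with 1 at -0.12. That the other 3 took ranks 1 to 3 of 18 for each of these 4 follows from the 6 pairs being the highest of 171.

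Chromosome 15 ranked 17 of 18 among the partners of chromosome 12 and 16 of 18 among those of chromosome 16. It ranked 4 of 18 for chromosome 18 and 5 of 18 for chromosome 19. Its own highest partner was chromosome 11, with log2 ratios of 0.098, 0.083, 0.11 and 0.15, and its lowest was chromosome 12. Chromosome 11 was thus the highest partner of 15 and the lowest partner of 12 and 16.

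The share of a chromosome's autosome trans contacts that went to its 4 fellows restates these counts by chromosome. For chromosome 19 it was 19.67%, 19.47%, 19.64% and 18.81%, where 17.50%, 17.61%, 17.68% and 17.02% were expected. For chromosome 18 it was 18.18%, 18.35%, 18.80% and 18.04%, where 16.88%, 17.06%, 17.23% and 16.61% were expected. Both chromosomes exceeded expectation in all 4 libraries. For chromosome 15 it was 15.95%, 16.35%, 16.91% and 15.74%, where 16.33%, 16.50%, 16.79% and 15.98% were expected. Chromosome 15 thus lay below expectation in 3 libraries and above it in 2i replicate 1. Chromosomes 12 and 16 lay above expectation in every library.

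Except for chromosome 12, the members are short. Chromosomes 15, 16, 18 and 19 measure 103.5, 98.3, 90.8 and 61.3 Mb, and of the other 14 autosomes only chromosome 17, at 95.3 Mb, falls in that range. Chromosome 12, at 121.3 Mb, lies between chromosome 13 at 120.3 Mb and chromosome 11 at 121.8 Mb. For each of the 10 pairs, the 5 pairs of other autosomes nearest in length were therefore the same: chromosome 17 with 9, 10, 11, 13 and 14. Their mean log2 ratios ran from -0.0093 to 0.049 with a median of 0.0022.

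The 10 pairs exceeded these comparison pairs by a median of 0.099, 0.095, 0.13 and 0.12, a mean of 0.11 or 1.08-fold, and 8 of 10 had an excess above 0. By mean ratio, the 6 pairs among 12, 16, 18 and 19 each lay above all 5 comparison pairs. So did chromosomes 15 and 19, at 0.052 against the highest of 0.049. In serum replicates 1 and 2 that pair had 0.0005 and 0.022, below chromosomes 11 and 17 at 0.040 and 0.061. By the mean, chromosomes 15 and 18 lay above 4 of the 5, and chromosomes 15 and 16 and chromosomes 12 and 15 below all 5. No pair of other autosomes is as short as those with chromosome 19. Without chromosome 19 the median excess was 0.049, 0.054, 0.085 and 0.078, with 4 of 6 pairs above 0. Some of these 6 pairs also lacked a comparison pair as short. Mean lengths were 100.9 Mb for 15 and 16, 97.1 for 15 and 18, 94.5 for 16 and 18 and 106.0 for 12 and 18. The shortest comparison pair, chromosomes 13 and 17, had 107.8 Mb.

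Pairs with a substitute of similar length were chosen after the values were seen. Since the 6 pairs among 12, 16, 18 and 19 were already the highest by mean, lower means for their substitutes follow from that ranking, and the values give only the size of the gap. With chromosome 16 as partner, chromosome 12 had a ratio of 0.12 while chromosome 11 had -0.056 and chromosome 13 had 0.0011. With chromosome 18 as partner, chromosome 12 had 0.12 while chromosome 11 had -0.043 and chromosome 13 had 0.019. With chromosome 19 as partner, chromosome 12 had 0.17, chromosome 13 had -0.078 and chromosome 11 had 0.050. In 2i replicate 2 the ratio with chromosome 19 was 0.15 for chromosome 11 and 0.13 for chromosome 12. With chromosome 15 as partner the order turned: chromosome 12 had -0.086, chromosome 13 had -0.012 and chromosome 11 had 0.11, and chromosome 12 was the lowest of these 3 in every library.

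Chromosome 17 served in the same way for 16 and 18. With chromosome 12 as partner, chromosome 17 had -0.049, where 16 had 0.12 and 18 had 0.12. With chromosome 19 as partner, chromosome 17 had 0.063, where 16 had 0.19 and 18 had 0.20. With chromosome 15 as partner, chromosome 17 had 0.055, above 16 at -0.036 and 18 at 0.031 in 4 of 4 libraries. In place of chromosome 15, chromosome 17 had 0.063 with 19, where 15 had 0.052, and -0.049 with 12, where 15 had -0.086. With chromosome 16 it had 0.0062, where 15 had -0.036. Chromosome 17 exceeded 15 in 4 of 4 libraries with 12 and with 16, and in 3 of 4 with 19. With chromosome 18 the order was the other way: 15 had 0.031 and 17 had 0.010, and 15 was higher in 4 of 4 libraries.

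Modelling length as a continuous property gave smaller values. A quadratic surface in log length, fitted to the 91 pairs without a member, gave 0.19 for chromosomes 18 and 19 and 0.15 for 16 and 19. The residuals of the 10 pairs then had medians of -0.049, -0.0061, 0.087 and 0.039, below 0 in serum and above 0 in 2i, with a mean of 0.018. The residual means of the 6 pairs among 12, 16, 18 and 19 remained above 0, from 0.014 to 0.11, and those of the 4 pairs of 15 lay below 0, from -0.11 to -0.046. For chromosomes 18 and 19 the residual was -0.070, -0.018, 0.11 and 0.038, so its sign differed between conditions. For chromosomes 12 and 16 it was 0.082, 0.065, 0.10 and 0.11, and for 12 and 15 it was -0.13, -0.095, -0.066 and -0.15. These last 2 pairs are the only members whose lengths lie within those of the fitted pairs, and the other 8 are extrapolated.

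A log-linear fit with a term for each chromosome and the product of log lengths put the 10 pairs 0.083, 0.072, 0.094 and 0.054 above other pairs on the log2 scale. The mean of the term, 0.076, was 0.024 without chromosome 19, 0.035 without 18, 0.038 without 12 and 0.048 without 16, and 0.157 without 15, beside an SD between replicates of 0.021. With expected counts taken from the product of lengths alone, without chromosome totals, the median excess over the length-similar pairs was 0.0042.

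Between 2i and serum the group as a whole differed little. The median log2 ratio of the 10 pairs was 0.11 ± 0.0090 in serum and 0.12 ± 0.0001 in 2i (SD, n = 2), a difference of 0.016. The difference depended on the members, the expected counts and the libraries, and was 0.0098 without serum replicate 2 and 0.023 without serum replicate 1. Without chromosome 15 the medians of the 4 libraries were 0.16, 0.14, 0.14 and 0.13, and the difference was -0.017. Without 12, 16 or 18 it was 0.047, 0.038 and 0.049, and with expected counts from chromosome lengths it was -0.014. The 2 conditions did not overlap in 6 of the 10 pairs, where 63.2% of all autosome pairs did not, so the members were close to the background. In 4 of these pairs, 15 and 19, 16 and 18, 15 and 18, and 18 and 19, the 2i libraries were higher, and in 16 and 19 and 12 and 19 they were lower. An exact permutation test of 2 against 2 libraries cannot give a two-sided p below 0.333, the value for each of these 6 pairs.

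The trans counts of all 210 pairs were compared between conditions with edgeR, which called 16.7% of them at an adjusted p under 0.05. It called 0 of the 10 members. By edgeR 1 member had an unadjusted p under 0.05, where 72 of all 210 pairs did. DESeq2 called 39 of 210 pairs and also 0 members. The member with the lowest p was chromosomes 15 and 19, which made up 0.291%, 0.309%, 0.339% and 0.316% of autosome trans pairs. The 2i libraries lay above the serum libraries, with an edgeR log2 difference of 0.16 ± 0.054 (SE) and an adjusted p of 0.0715. With autosome pairs only, edgeR called this pair, 1 member among 46 of 171 pairs, and with a crossed replicate block, added after seeing the data, it called the same member among 56 of 210. With 2i replicate 2 left out, edgeR called 3 members, chromosomes 12 and 18, 15 and 19, and 18 and 19, among 78 of 210 pairs.

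With the expected counts as offsets, which removes changes in the chromosome totals, edgeR called 9.36% of 171 autosome pairs at an adjusted p under 0.05. It called 1 of the 10 members, chromosomes 15 and 19. DESeq2 called 3 members, and 29 of all 171 pairs. The edgeR log2 difference of 2i over serum was 0.080 ± 0.013 (SE) for 15 and 19, adjusted p 0.0231, with both 2i libraries the higher. The other members called by DESeq2 were 12 and 19 and 16 and 19, so all 3 were pairs of chromosome 19. Since totals are kept, a difference in 1 pair also moves the expected counts of pairs that share a chromosome with it. For 12 and 19 the edgeR difference was -0.082 ± 0.022 (SE), adjusted p 0.0599, and for 16 and 19 it was -0.031 ± 0.011 (SE), adjusted p 0.0995, both short of the edgeR threshold. The call of 15 and 19 was lost without serum replicate 1, without 2i replicate 1 or without 2i replicate 2, each with 0 members called by edgeR. Each of those fits left 1 library in a condition. DESeq2, run on all 4 libraries only, called 3 members among 29 of 171 pairs. Without serum replicate 2, edgeR called 12 and 19 and 15 and 19. It called the same 2 pairs with X and Y in the expected counts, among 41 of 210 pairs called. With a crossed replicate block, added after seeing the data, it also called these 2, among 54 of 171 pairs called. With a replicate block edgeR called 1 of 171 pairs and 0 members. By that fit 4 members had an unadjusted p under 0.05, as did 45 of all 171 pairs. DESeq2, without the block, called 3 members among 29 pairs.

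In sequence composition the 5 chromosomes were not alike. Their GC content was 41.8% for chromosome 12, 42.0% for 15, 40.9% for 16, 41.4% for 18 and 42.7% for 19. Coding genes numbered 5.99 per sequenced Mb on chromosome 12, 5.90 on 18 and 7.09 on 16, but 7.94 on 15 and 12.5 on 19. Chromosomes 12 and 18 had the lowest gene density of the 19 autosomes and chromosome 19 the third highest. GATC sites lay at 2.44 to 2.48 per kb on all 5.

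In the mm9 assembly each of the 19 autosomes begins with 3000000 bp without sequence, at the centromeric end where the arrays lie. The counts thus came from the assembled arms, and contacts of the arrays themselves were not analysed here. The annotated coding gene closest to that end was 1700012B15Rik on chromosome 12 (3236611 to 3249999), Sepp1 on 15 (3218547 to 3230508), Olfr161 on 16 (3592398 to 3593339), Vmn1r238 on 18 (3122455 to 3123465) and Ighmbp2 on 19 (3260924 to 3283017). Sepp1 encodes a secreted selenoprotein and Olfr161 an olfactory receptor. The table gives 1 count per pair of whole chromosomes, so where along the arms the contacts lay was not tested.

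Contacts within the same chromosome made up similar shares for the members and the other autosomes, with overlapping ranges in each library. The median cis share of read ends was 85.2%, 85.1%, 79.2% and 85.7% for the 5, and 86.1%, 86.3%, 81.2% and 86.6% for the other 14. Chromosome 19 had the lowest cis share of all autosomes in each library, from 76.3% to 83.5%. Chromosome 17, outside the group and of similar length, had 84.0%, 84.1%, 78.8% and 84.8%, below the other 4 members in every library.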

How the data were processed

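Using distiller, the authors aligned the Hi-C reads to mm9 and removed duplicates, which share both coordinates. The deposited counts are raw numbers of unique read pairs for each library and each pair of chromosomes. The authors also deposited sums over the replicates of each condition, which were not used. The methods say that pairs of low mapping quality were left unused, without saying if that limit was set before the pairs in these counts were tallied. Members and lists were chosen with earlier results of these data known.

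Expected counts keep the trans total of each of 19 autosomes over 171 pairs and were found by iterative fitting (Python 3.11.15, numpy 2.4.6, pandas 2.3.3). Length-similar pairs were the 5 nearest in log length with neither chromosome in the group. Chromosome lengths, GC content, GATC sites and genes came from the NCBIM37 genome, the same assembly as mm9, with its GENCODE annotation.

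Conditions were compared by the quasi-likelihood test of edgeR 4.0.16 on pairs with 10 or more counts per library, calling an adjusted p (Benjamini-Hochberg) below 0.05, with TMM over 210 pairs and with expected counts as offsets over 171. DESeq2 1.42.0 was an alternative, and limma 3.58.1 tested log2 ratios against 0 (R 4.3.3). With offsets, the dispersion that edgeR estimated, 9.77e-05, lay where its deviance is approximated, and the approximation failed at these counts: all 171 deviances were off by over 1% and 48 pairs had a negative F. The working dispersion was therefore kept at 0.0001 or above, after the values without this floor (1 pair called) had been seen, and all deviances then matched the exact formula. The trans count fit was above the floor. The edgeR and limma steps were tested on simulated data.

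Named pairs were all 10 members, the highest and lowest partner of each of the 5 chromosomes with the ranks of its 4 fellows, the length-similar pairs, the highest and lowest of all autosome pairs and the highest outside the 10. Pairs with the substitutes 11, 13 and 17, and the pairs of 11 and 19 and of 14 and 19, were named after their values were seen. Alternatives changed the expected counts, the comparison pairs, the covariates, the members, the normalization, the test, the pairing and the libraries.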

Additional observations from a re-analysis of the deposited data

How the results depend on the processing

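The median log2 ratio of the 10 pairs, their excess over length-similar pairs and the pair term of the log-linear fit were above 0 in all 13, 16 and 14 alternatives run, and the 2i minus serum difference was above 0 in 11 of 13. In that order of 4 results, leaving out 1 library gave 0.113 to 0.119, 0.110 to 0.114, 0.066 to 0.086 and 0.0098 to 0.023. Without chromosome 12 among the members the values were 0.090, 0.086, 0.038 and 0.047, without chromosome 15 they were 0.143, 0.140, 0.157 and -0.017, without 16 they were 0.089, 0.086, 0.048 and 0.038, and without 18 they were 0.083, 0.080, 0.035 and 0.049. Without chromosome 19 the first 3 results were 0.070, 0.067 and 0.024, the last beside an SD between replicates of 0.021. Expected counts from chromosome lengths gave a median of 0.196, an excess of 0.0042 and a difference of -0.014. That excess was no larger than its SD between replicates, 0.0044. The mean in place of the median gave 0.088 and a difference of 0.0033. The excess was 0.018 over a quadratic fit in log length and 0.020 with GC content added. Over the fit without GC content it was below 0 in serum, at -0.049 and -0.0061, and above 0 in 2i, at 0.087 and 0.039. The pair term was 0.127 without the length covariate. An indicator for the 6 pairs of 12, 16, 18 and 19, chosen after seeing that these pairs were the highest, gave 0.157. It marks the same pairs as the planned members without chromosome 15, so the 14 alternatives count this fit under both names. The causes of these shifts were not tested.

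Of trans counts, edgeR called 35 of 210 pairs (31 higher and 4 lower in 2i), 53 without TMM (27 and 26) and 46 of 171 with autosome pairs only (27 and 19). DESeq2 called 39 (26 and 13). With autosome pairs only, 1 member was called, 15 and 19. Leaving out 1 library gave 16 to 78 calls and 0 to 3 members. With offsets, edgeR called 16 of 171 pairs (8 and 8) with 1 member, DESeq2 29 (12 and 17) with 3 members, and a fit with X and Y in the expected counts, which tested 210 pairs, called 41 with 2 members. Leaving out 1 library gave 1 to 12 calls and 0 to 2 members. A condition left with 1 library was assumed to vary like the other.

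Replicate numbers did not pair the libraries: deviations of same-numbered libraries correlated at -0.708 over 210 pairs in trans share and at -0.181 over 171 pairs in the log2 ratio. With a replicate block, edgeR called 37 pairs of trans counts and 1 with offsets, and 0 members in both. In these fits 0 and 4 members had an unadjusted p under 0.05, where 54 of 210 and 45 of 171 pairs did. DESeq2, without the block, called 0 and 3 members among 39 and 29 pairs. A crossed replicate block, added after seeing the data, gave 56 calls with 1 member for trans counts and 54 with 2 members for offsets.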

Other observations

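Among pairs joining chromosome 19 to chromosomes outside the group, that with chromosome 11, chosen after its values were seen, had log2 ratios of -0.032 and -0.019 in serum replicates 1 and 2 and of 0.098 and 0.15 in 2i replicates 1 and 2. Both 2i libraries lay above 0 and both serum libraries below it. For 11 and 19 the log2 difference of 2i over serum in trans counts was 0.35 ± 0.039 (SE), edgeR adjusted p 0.00048. With expected counts as offsets it was 0.15 ± 0.016 (SE), with an edgeR adjusted p of 0.0031. That call with offsets was lost with a replicate block, where edgeR called 0 pairs higher in 2i, and also without serum replicate 1. Among the 18 partners of chromosome 19, chromosome 11 thus ranked 10 and 8 in serum, and in 2i it ranked 5 and 3. The pair of 14 and 19, likewise chosen after its values were seen, changed in the opposite direction. Its log2 ratio, library by library in the usual order, was 0.017, 0.024, -0.093 and -0.090. With offsets its log2 difference was -0.11 ± 0.011 (SE), and its edgeR adjusted p of 0.0027 was the lowest of all 171 pairs. For its trans counts the difference was -0.13 ± 0.047 (SE), edgeR adjusted p 0.081, short of the threshold.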
